A study of Rattus norvegicus with 15 samples.

Results

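Slc4a4, Slc9a3 and Aqp1 encode 3 membrane proteins through which the renal proximal tubule moves bicarbonate, protons and water. They were chosen by name: a probe counted as a member where the platform's probe table gives it 1 of these 3 symbols. Each gene had 1 probe, so 3 of the 26857 probes, and 3 of the 401 probes with a gene symbol, were members. All 3 had a signal on each of the 15 arrays, and all 3 were tested.

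The study profiled kidney RNA of rats after cisplatin, a platinum anticancer drug that harms the proximal tubule. There were 5 groups of 3 arrays: isolated proximal tubules after saline, after 2 mg/kg cisplatin and after 10 mg/kg cisplatin, and whole kidneys after 10 mg/kg cisplatin and after saline. All groups share strain, sex and age: they were male Wistar/ST rats of 8 weeks, and the labels name no altered allele. Drug and saline were injected into the peritoneal cavity, the saline in an equal volume, and the tubules were dissected under a microscope. How long after injection the tissue was taken is not stated in the labels, nor is whether an array stands for 1 animal or a pool, so the p-values cover only array-to-array spread, which may be technical.

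In the proximal tubule, protons leave the cell for the lumen in exchange for sodium, filtered bicarbonate is reclaimed as carbon dioxide, and the bicarbonate formed inside the cell leaves at the blood side. Slc9a3 encodes NHE3, the sodium-proton exchanger of the brush border. Slc4a4 encodes NBCe1, the sodium-bicarbonate cotransporter of the basolateral membrane. Aqp1 encodes the water channel aquaporin-1, which is present in both membranes of the proximal tubule and in the descending thin limb, and lets water follow the reabsorbed solute. Inherited loss of SLC4A4 in humans causes proximal renal tubular acidosis.

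The start region of each gene is shown to place it in the genome and give the letters around its annotated start; no relation between these letters and the signals was tested. The sequences are those of RefSeq on build GRCr8, from 250 bases before to 50 bases after the annotated start, written in the direction of transcription. Capitals mark a match to 1 of 3 motifs, each searched on both strands. The motifs were GTTAAT, part of the binding site of the proximal tubule factor HNF1, GGGCGG, the GC box, and TATAAA, the TATA box. Slc4a4 lies at chr14:19468233-19468532 on the minus strand, Slc9a3 at chr1:30995953-30996252 on the minus strand and Aqp1 at chr4:85812534-85812833 on the plus strand.
Slc4a4: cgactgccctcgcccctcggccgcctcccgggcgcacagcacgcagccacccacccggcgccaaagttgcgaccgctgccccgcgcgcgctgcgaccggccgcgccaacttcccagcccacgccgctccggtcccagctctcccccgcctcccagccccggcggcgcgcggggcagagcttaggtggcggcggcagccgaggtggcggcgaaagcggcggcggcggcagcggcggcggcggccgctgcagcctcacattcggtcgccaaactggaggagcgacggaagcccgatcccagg
Slc9a3: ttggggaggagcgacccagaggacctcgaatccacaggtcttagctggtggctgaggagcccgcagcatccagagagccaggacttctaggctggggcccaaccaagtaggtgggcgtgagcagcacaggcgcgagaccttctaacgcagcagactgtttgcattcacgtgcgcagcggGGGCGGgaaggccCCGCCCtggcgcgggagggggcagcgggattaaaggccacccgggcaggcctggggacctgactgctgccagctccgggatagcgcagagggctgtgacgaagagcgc
Aqp1: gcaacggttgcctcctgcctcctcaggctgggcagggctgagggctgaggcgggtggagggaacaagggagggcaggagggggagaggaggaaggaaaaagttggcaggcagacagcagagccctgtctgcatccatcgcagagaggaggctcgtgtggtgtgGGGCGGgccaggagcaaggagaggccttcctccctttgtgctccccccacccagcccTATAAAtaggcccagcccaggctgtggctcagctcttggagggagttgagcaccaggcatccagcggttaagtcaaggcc
None of the 3 motifs was found in the Slc4a4 window. The Slc9a3 window held 2 GC boxes, beginning at -71 on the coding strand and at -58 on the other strand. The Aqp1 window held 1 GC box at -87 and 1 TATA box at -30, both on the coding strand. Of all 33469 rat promoter windows of this length, 7.45% held GTTAAT, 33.1% held GGGCGG and 14.2% held TATAAA. The share of G and C was 78.0% for Slc4a4, 66.7% for Slc9a3 and 64.0% for Aqp1, against a median of 51.7% over all windows. The annotated start in the Slc4a4 window lies 109097 bases from the upstream end of the annotated gene span. Those of Slc9a3 and Aqp1 lie 207 and 0 bases from that end. The window printed for Slc4a4 thus belongs to an inner start of the gene. Which Slc4a4 transcripts the probe detects was not analysed here.

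The array files listed between 26207 and 26547 probes each, with signals down to 4.35 and none at 0, and every marker with a named probe was listed on all 15. Arrays of a group correlated at 0.867 to 0.967 over probes, arrays of different groups at 0.769 to 0.946, and no pair was identical. Saline whole kidney replicate 3 was the least like the rest (0.819 on average), followed by 10 mg/kg whole kidney replicate 1 (0.827). Differences of the 3 genes that draw on the saline whole kidney mean are given with and without saline whole kidney replicate 3 below. Group means and correlations over the 15 arrays are given only with it. The tubule label was set against marker genes: of 10 markers of the early proximal segments 9 had a named probe, 2 of them being Slc4a4 and Slc9a3, and the mean log2 signal of the other 7 lay at 16.05 to 16.96 in saline tubules and at 12.76 to 13.01 in saline whole kidneys. Of 6 markers of the last proximal segment 4 were named, and their mean lay lower in saline tubules, at 10.71 to 12.68, than in saline whole kidneys, at 14.22 to 14.52. For the thin limb apart from Aqp1, and for the thick limb, distal tubule, collecting duct, podocytes, endothelium, stroma and red cells, no marker had a named probe, so cells of these kinds were not followed.

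In proximal tubules the first question was which transport genes changed at 10 mg/kg. The exchanger gene Slc9a3 fell 7.93-fold and the bicarbonate carrier gene Slc4a4 fell 2.92-fold, while the water channel gene Aqp1 did not pass the test. Values are log2 signals after quantile normalization, a scale on which 1 unit is a doubling, and since no background measure was used a fold is a ratio of signals. A gene is said to rise or fall where its limma p, adjusted over all 26601 tested probes, is below 0.05.

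Slc9a3 read 10.18, 10.56 and 10.77 in 10 mg/kg tubules, against 13.17, 13.48 and 13.83 in saline tubules. Every treated array lay more than 2 units under every saline array, and the groups did not overlap. The difference was -2.99 ± 0.49 (SE; 95% interval -4.04 to -1.93), a 7.93-fold lower signal, with a limma adjusted p of 0.00224. It ranked 101 from the lowest among the 26601 differences.

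Slc4a4 read 14.11, 14.11 and 14.46 in 10 mg/kg tubules, against 15.15, 15.85 and 16.32 in saline tubules. After quantile normalization the treated arrays lay close together below all saline arrays, which spread over more than 1 unit. With each array centred on its median, treated arrays read 6.39, 5.40 and 6.30, and saline arrays 7.53, 8.08 and 8.15. Which group spread more thus depended on the scaling, while the treated arrays stayed lower. The difference was -1.55 ± 0.42 (95% interval -2.44 to -0.65), 2.92-fold lower, with a limma adjusted p of 0.0439. That call was lost when the fit held these 6 arrays alone (limma adjusted p = 0.107) and with array weights (-1.47, limma adjusted p = 0.0592), and in 11 of 15 fits that left out 1 array. These were the fits without saline tubule replicate 2 (-1.51, limma adjusted p = 0.122) or 3 (-1.27, limma adjusted p = 0.180), without 10 mg/kg tubule replicate 1 (-1.48, limma adjusted p = 0.119), 2 (-1.49, limma adjusted p = 0.123) or 3 (-1.66, limma adjusted p = 0.0780), and, with the difference at -1.55 and limma adjusted p between 0.0513 and 0.0623, without 2 mg/kg tubule replicate 1 or 2, saline whole kidney replicate 3 or any of the 10 mg/kg whole kidney arrays.

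Aqp1 read 14.41, 13.54 and 14.37 in 10 mg/kg tubules, against 14.97, 14.67 and 15.53 in saline tubules. The treated arrays were all lower, but the highest of them came within 0.3 units of the lowest saline array. The difference was -0.95 ± 0.40 (95% interval -1.80 to -0.10), with a limma adjusted p of 0.233. Of the 3 genes 2 therefore fell, where 3.36% of all tested probes fell and 5.84% changed in either direction. All probes with a gene symbol, the 3 genes included, belong to 1219 probes that the authors chose for a table by a rule not given in the sources used here, which may have used these samples. Of the 401 probes with a symbol 187 fell, so the share of all probes is no measure of what sets the 3 genes apart, and their counts are no independent evidence of a direction. All 3 had groups that did not overlap and lay lower in treated tubules, as did 11.7% of the probes with a value on all 6 arrays.

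Other markers moved in the same arrays. They too have names only through the table chosen by the authors, so their counts are no independent evidence of a direction. Of the 7 other early segment markers 6 fell in 10 mg/kg tubules, and their mean lay at 13.66 to 14.14, against 16.05 to 16.96 in saline tubules. Of the 4 last segment markers 3 fell, with a mean of 8.68 to 9.23 in 10 mg/kg tubules, against 10.71 to 12.68 in saline tubules. Of 6 tubular injury markers 5 rose, with a mean of 12.95 to 13.88 in 10 mg/kg tubules, against 9.35 to 10.74 in saline tubules. Of all tested probes 2.48% rose and 3.36% fell, and of the 401 probes with a symbol 41 rose and 187 fell. The 2 named leukocyte markers of 7, C1qa and C1qc, averaged 12.26 to 13.32 in 10 mg/kg tubules and 10.92 to 12.18 in saline tubules, with neither passing the test. The part of these shifts in the falls of Slc9a3 and Slc4a4 was not tested, and in bulk RNA fewer cells of a type and less RNA per cell cannot be told apart.

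**Figure D1:**
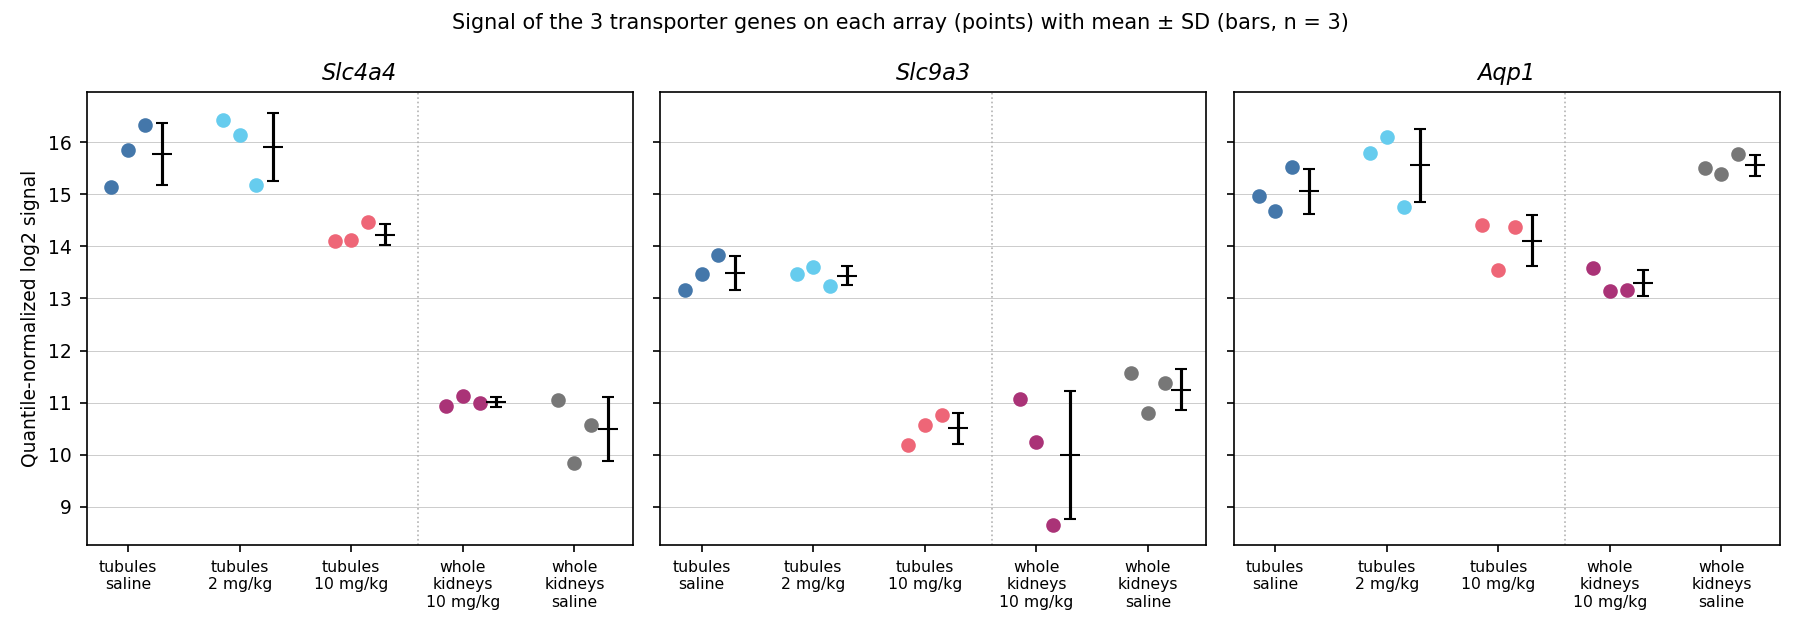
Quantile-normalized log2 signal (vertical axis) of Slc4a4, Slc9a3 and Aqp1 on each of the 15 arrays; points are arrays, bars the mean ± SD of 3 arrays, and the dotted line divides tubules from whole kidneys. Slc9a3 sits between 10.18 and 10.77 in 10 mg/kg tubules and between 13.17 and 13.83 in saline tubules, while Slc4a4 sits above 14 in every tubule array and below 11.2 in every whole kidney array.

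At 2 mg/kg none of the 3 genes passed the test against saline. Slc4a4 read 15.15, 15.85 and 16.32 after saline and 16.43, 16.14 and 15.18 at 2 mg/kg, a difference of 0.14 with a 95% interval of -0.75 to 1.04. Slc9a3 read 13.47, 13.60 and 13.24 at 2 mg/kg, a difference from saline of -0.06 with an interval of -1.11 to 0.998. Aqp1 read 15.80, 16.11 and 14.76 at 2 mg/kg, a difference of 0.50 with an interval of -0.36 to 1.35. For each gene the 2 mg/kg arrays overlapped the saline arrays, and the intervals still allow changes of about 1 unit either way for Slc4a4 and Slc9a3. The limma adjusted p was 0.9999 for all 3, and over all probes 0% passed, with 903 of 26601 at an unadjusted p below 0.05. The small difference of Slc9a3 changed sign with the scaling, standing at 0.027 with median centring.

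From 2 to 10 mg/kg all 3 genes fell. Slc9a3 differed by -2.93 (95% interval -3.99 to -1.88), 7.63-fold lower, with a limma adjusted p of 0.00231. Slc4a4 differed by -1.69 (95% interval -2.59 to -0.79), 3.23-fold lower, with a limma adjusted p of 0.0256. Aqp1 differed by -1.45 (95% interval -2.30 to -0.59), 2.73-fold lower, with a limma adjusted p of 0.0441. Of all tested probes 3.77% fell in this comparison and 6.43% changed in either direction, and for all 3 genes every 10 mg/kg array lay below every 2 mg/kg array, as for 13.4% of probes. Of the 401 probes with a symbol 203 fell. This comparison and the one with saline share the 10 mg/kg arrays. The call of Aqp1 was lost without scaling (-2.04, limma adjusted p = 0.0719, where the median of all probes stood at -0.14) and in a fit of the 6 arrays alone (limma adjusted p = 0.147), and that of Slc4a4 in the fit of these arrays (limma adjusted p = 0.0690).

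Leaving out single arrays ended the same 2 calls. For Slc4a4 this held without replicate 1 (-1.43, limma adjusted p = 0.131) or 2 (-1.58, limma adjusted p = 0.108) of 2 mg/kg tubules, and for 10 mg/kg tubules without replicate 1 (limma adjusted p = 0.0756), 2 (limma adjusted p = 0.0823) or 3 (-1.81, limma adjusted p = 0.0508). For Aqp1 it held in 12 of 15 fits: without 2 mg/kg replicate 1 (-1.33, limma adjusted p = 0.166) or 2 (-1.17, limma adjusted p = 0.206), without 10 mg/kg tubule replicate 1 (-1.60, limma adjusted p = 0.0614), 2 (-1.17, limma adjusted p = 0.174) or 3 (-1.58, limma adjusted p = 0.0704), and at -1.45 without saline tubule replicate 1 or 2, saline whole kidney replicate 1 or 2, or any 10 mg/kg whole kidney array (limma adjusted p between 0.05003 and 0.0620). The call of Slc9a3 was kept in every alternative tried, in this comparison and in that with saline.

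**Figure D2:**
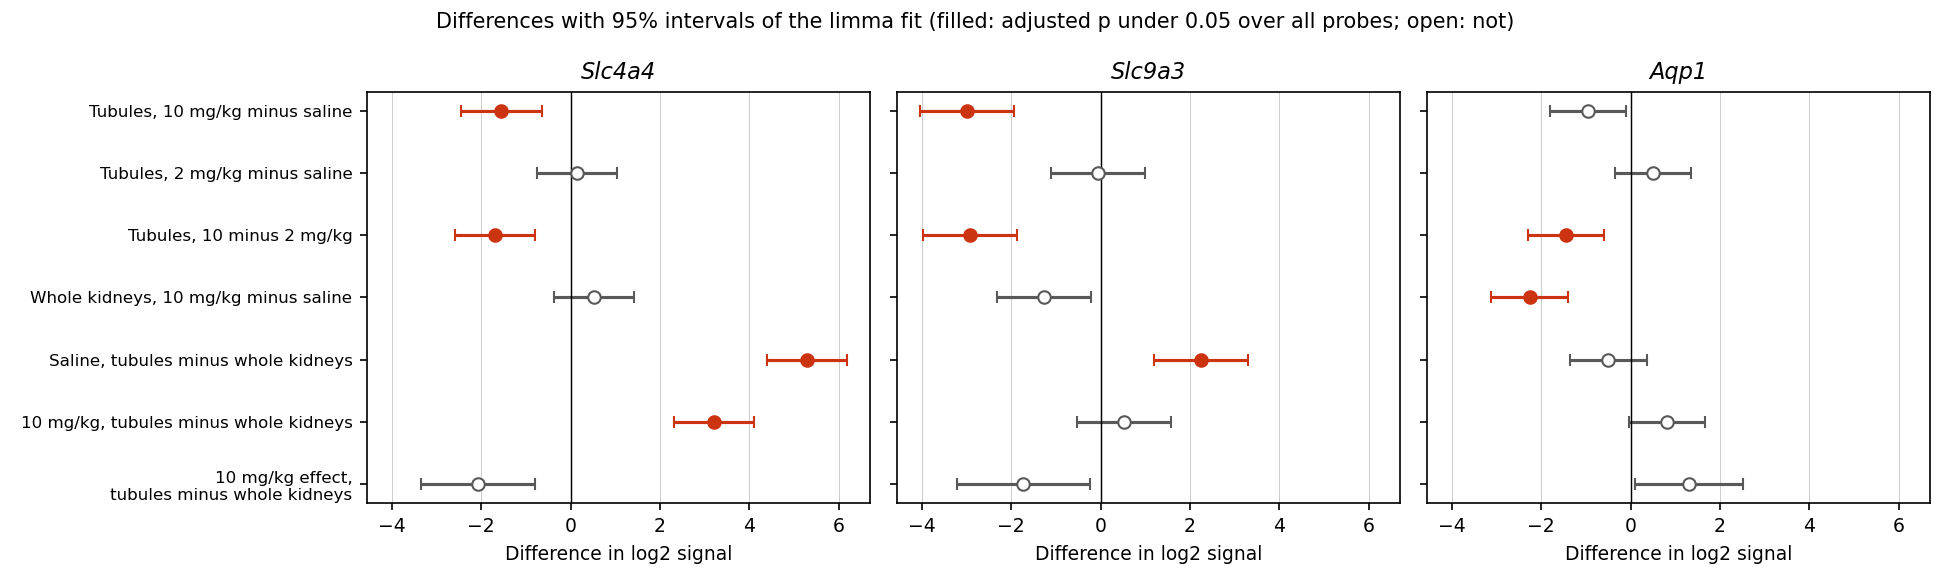
Difference in log2 signal (horizontal axis) with its 95% interval from the limma fit for each gene and comparison (rows); filled points have an adjusted p below 0.05 over all tested probes. Slc9a3 stands near -3 in both comparisons of 10 mg/kg tubules, Aqp1 stands furthest below 0 in whole kidneys, and Slc4a4 reaches 5.29 between saline tubules and saline whole kidneys.

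In whole kidneys at 10 mg/kg Aqp1 fell, and neither Slc9a3 nor Slc4a4 passed the test. Aqp1 read 13.59, 13.14 and 13.15 in 10 mg/kg whole kidneys, against 15.51, 15.39 and 15.77 in saline whole kidneys. Each group was tight, and a gap of more than 1.5 units lay between them. The difference was -2.26 (95% interval -3.11 to -1.41), 4.80-fold lower, with a limma adjusted p of 0.00399, and -2.15 without saline whole kidney replicate 3 (limma adjusted p = 0.0180). Of the 3 genes 1 fell, where 3.53% of all tested probes fell, 6.45% changed in either direction, and 12.8% had lower groups that did not overlap. Of the 401 probes with a symbol 186 fell.

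Slc9a3 read 11.07, 10.23 and 8.65 in 10 mg/kg whole kidneys, against 11.57, 10.81 and 11.37 in saline whole kidneys. Treated replicate 1 lay among the saline arrays, and treated replicate 3 lay far under all others. The difference was -1.26 (95% interval -2.32 to -0.21), with a limma adjusted p of 0.157. It hung on single arrays, at -1.81 without treated replicate 1 (limma adjusted p = 0.0409) and at -0.60 without treated replicate 3 (limma adjusted p = 0.462), and stood at -1.20 without saline replicate 3. On treated replicate 3 the Slc9a3 signal exceeded 57.6% of the listed probes, the lowest rank of this probe on any array, and how far it stood above background was not measured.

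Slc4a4 read 10.93, 11.13 and 10.99 in 10 mg/kg whole kidneys, against 11.05, 9.84 and 10.57 in saline whole kidneys. Saline replicate 1 lay among the treated arrays, so the groups overlapped. The difference was 0.53 (95% interval -0.37 to 1.42), with a limma adjusted p of 0.530, and 0.57 without saline replicate 3.

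In the same whole kidneys 6 of 6 tubular injury markers rose, with a mean of 14.49 to 14.997 at 10 mg/kg and 11.23 to 11.79 after saline. The count was 4 of 6 without scaling between arrays. It was 5 of 6 without saline whole kidney replicate 2 or 10 mg/kg whole kidney replicate 1. Of all tested probes 2.93% rose and 3.53% fell, and of the 401 probes with a symbol 56 rose and 186 fell. Marker counts here are likewise no independent evidence of a direction, since the markers were named only through the table chosen by the authors. All 4 named markers of the last proximal segment fell, their mean lying at 10.47 to 11.02 at 10 mg/kg and 14.22 to 14.52 after saline. Of the 7 other early segment markers 3 fell and 2 stood above 0. The mean of the 7 was 11.12 to 12.05 at 10 mg/kg and 12.76 to 13.01 after saline. In the fit without 10 mg/kg whole kidney replicate 1, 1 of the 7 passed as higher and 2 as lower. C1qa and C1qc averaged 12.26 to 12.76 at 10 mg/kg and 10.69 to 11.29 after saline, at differences of 1.29 (limma adjusted p = 0.0753) and 1.505 (limma adjusted p = 0.0527). Both passed as higher in the fit without 10 mg/kg tubule replicate 2, and 1 of the 2 in the fits without saline tubule replicate 1 or 3. The falls numbered 3 of 4 last segment markers without any 1 of the whole kidney arrays, saline or treated. For the early segment markers they numbered 2 of 7 without any 1 saline whole kidney array, or without 10 mg/kg whole kidney replicate 1 or 3. The part of these shifts in the fall of Aqp1 was not tested.

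**Figure D3:**
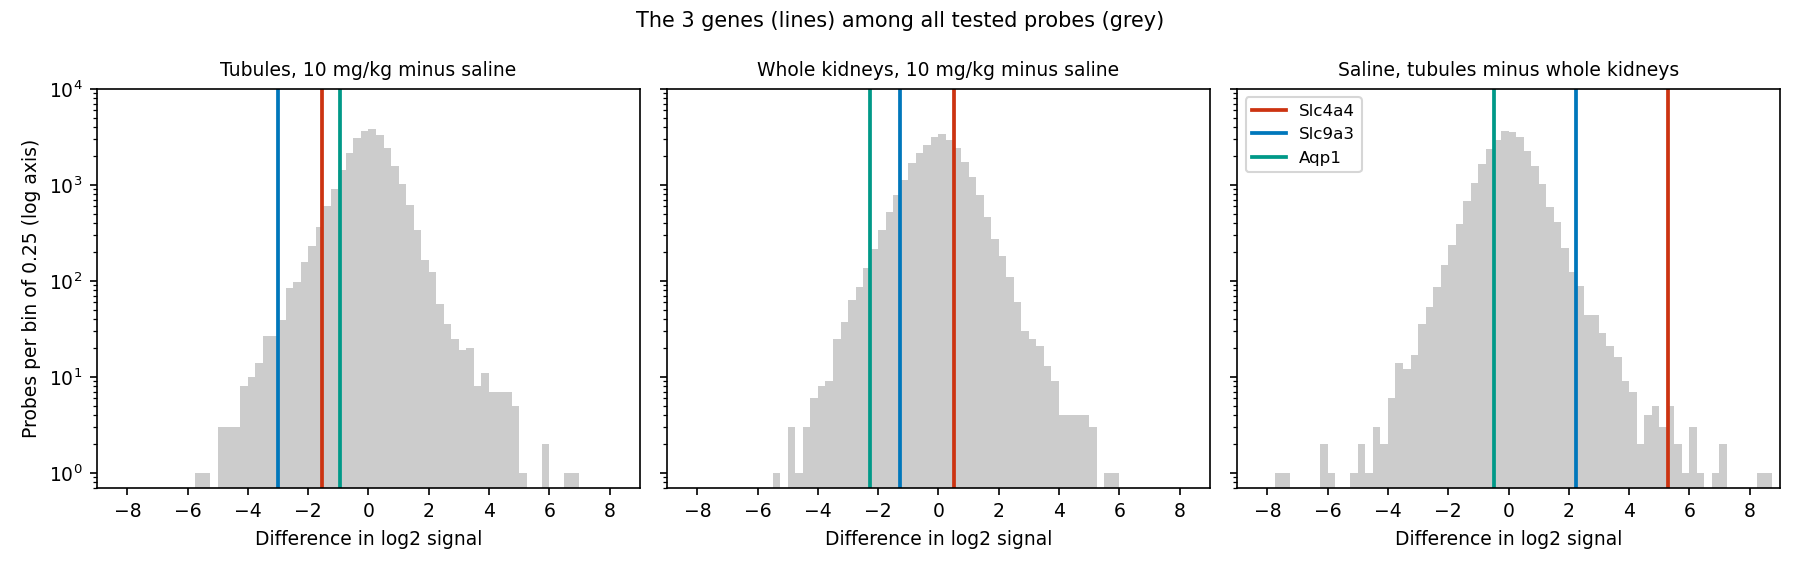
Number of probes (log vertical axis) by difference in log2 signal (horizontal axis, bins of 0.25 units) over all tested probes in grey, with the 3 genes as vertical lines, for 10 mg/kg minus saline in tubules, the same in whole kidneys, and saline tubules minus saline whole kidneys. Slc9a3 at -2.99 is the outermost of the 3 in tubules, Aqp1 at -2.26 in whole kidneys, and Slc4a4 at 5.29 between the saline groups.

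Saline tubules were set against saline whole kidneys to compare the signal of each transcript between these kinds of sample. Cell content and preparation changed together here, since only the tubules were dissected. Their parts in a fold cannot be told apart, so a fold does not measure how concentrated a transcript is in tubules. Slc4a4 was 39.0-fold higher in tubules, Slc9a3 4.73-fold higher, and Aqp1 did not differ detectably. Slc4a4 lay between 15.15 and 16.32 in saline tubules and between 9.84 and 11.05 in saline whole kidneys, a difference of 5.29 (95% interval 4.39 to 6.18) with a limma adjusted p of 9.14e-06. It ranked 17 from the highest among 26601 probes. Slc9a3 lay between 13.17 and 13.83 in saline tubules and between 10.81 and 11.57 in saline whole kidneys, a difference of 2.24 (95% interval 1.19 to 3.30) with a limma adjusted p of 0.0207. Of all tested probes 2.12% were higher in tubules and 3.59% differed in either direction, and 13.1% had higher groups that did not overlap, as both genes had. Of the 401 probes with a symbol 65 were higher in saline tubules. The call of Slc9a3 was lost without saline tubule replicate 2 (2.25, limma adjusted p = 0.0694) or 3 (2.07, limma adjusted p = 0.0866) and without saline whole kidney replicate 2 (2.02, limma adjusted p = 0.0778) or 3 (2.30, limma adjusted p = 0.0567), whereas Slc4a4 stood at 5.33 without saline whole kidney replicate 3 (limma adjusted p = 8.98e-05).

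Aqp1 lay between 14.67 and 15.53 in saline tubules and between 15.39 and 15.77 in saline whole kidneys, and the groups overlapped. The difference was -0.50 (95% interval -1.35 to 0.36), with a limma adjusted p of 0.592, and -0.39 without saline whole kidney replicate 3. Its direction turned with the scaling: without any scaling between arrays it stood at 0.59, but the median of all probes then stood at 0.61, and relative to that median Aqp1 was at -0.02. In the other comparisons the unscaled median of all probes lay between -0.32 and 0.30, and relative to it Slc9a3 stood at -3.35 and Slc4a4 at -1.96 in tubules at 10 mg/kg against saline, and Aqp1 at -2.46 in whole kidneys. Of the 7 other early segment markers 5 were higher in saline tubules, and of the 4 last segment markers 3 were lower. These counts were 4 and 2 without any 1 saline whole kidney array, and likewise without saline tubule replicate 2 or 3. Of all tested probes 2.12% were higher and 1.46% lower in saline tubules, and of the 401 probes with a symbol 65 were higher and 32 lower. The part of these marker differences in the values of the 3 genes was not tested.

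After 10 mg/kg Slc4a4 still stood higher in tubules than in whole kidneys, while Slc9a3 did not pass the test. Slc4a4 differed by 3.21 (95% interval 2.32 to 4.11), 9.27-fold higher in tubules, with a limma adjusted p of 0.000416, where 5.85% of all probes were higher, 10.6% differed and 14.4% had higher groups that did not overlap, as Slc4a4 had. Of the 401 probes with a symbol 86 were higher. Slc9a3 differed by 0.52 (95% interval -0.54 to 1.57), with overlapping groups and a limma adjusted p of 0.594, and its sign turned to -0.15 without 10 mg/kg whole kidney replicate 3. Aqp1 differed by 0.81 (95% interval -0.04 to 1.67), with a limma adjusted p of 0.239, and its groups overlapped at 13.54 in tubules and 13.59 in whole kidneys.

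Whether the effect of 10 mg/kg itself differed between tubules and whole kidneys was tested as an interaction. The effect in tubules minus that in whole kidneys was -2.07 ± 0.59 for Slc4a4 (SE; 95% interval -3.34 to -0.81), with a limma adjusted p of 0.212. For Slc9a3 it was -1.73 ± 0.69 (95% interval -3.22 to -0.24), with a limma adjusted p of 0.391, and for Aqp1 1.31 ± 0.56 (95% interval 0.11 to 2.52), with a limma adjusted p of 0.421. No difference of effects passed over all probes for the 3 genes, where 0.0376% of probes did, so a call in 1 kind of sample and not in the other does not show that the effects differ. Without saline whole kidney replicate 3 the 3 values were -2.11, -1.79 and 1.20.

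Because the 3 probes sit on the same arrays, the change of 1 gene relative to another needs no scaling between arrays. Relative to Slc9a3, Slc4a4 gained 1.39 log2 units in 10 mg/kg tubules over saline tubules, a 2.62-fold change of the ratio without overlap of the arrays. Relative to Aqp1, Slc9a3 changed by -2.00 units in 10 mg/kg tubules against saline tubules without overlap, and Slc4a4 stood at -0.61 units with overlapping arrays. In whole kidneys Slc4a4 gained 2.77 units on Aqp1 at 10 mg/kg against saline, a 6.80-fold change of the ratio without overlap (7.05-fold without saline whole kidney replicate 3). The ratio of Slc4a4 to Aqp1 was 54.0-fold higher in saline tubules than in saline whole kidneys, again without overlap (56.0-fold without that array). With 3 arrays against 3, an exact two-sided permutation test cannot go below 0.1. The 4 changes named without overlap reached that smallest value, and over the 18 relations computed their adjusted value was 0.164. Other relations of the 18, not named here, reached the same value. How often other pairs of probes do so was not computed.

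Across the 5 groups each gene had its own order of levels. Slc4a4 averaged 15.92 ± 0.65 in 2 mg/kg tubules (SD, n = 3 arrays here and below), 15.77 ± 0.59 in saline tubules, 14.23 ± 0.20 in 10 mg/kg tubules, 11.02 ± 0.10 in 10 mg/kg whole kidneys and 10.49 ± 0.61 in saline whole kidneys. The first 2 and the last 2 of these groups did not differ beyond their spread, while a wide step separated all tubules from all whole kidneys. Slc9a3 averaged 13.49 ± 0.33 in saline tubules, 13.43 ± 0.18 in 2 mg/kg tubules, 11.25 ± 0.40 in saline whole kidneys, 10.50 ± 0.30 in 10 mg/kg tubules and 9.99 ± 1.23 in 10 mg/kg whole kidneys. Its first 2 groups overlapped, its last 2 overlapped, and the lowest saline whole kidney array, at 10.81, nearly met the highest 10 mg/kg tubule array, at 10.77. That pair of groups was not tested, and with median centring it overlapped. Aqp1 averaged 15.56 ± 0.20 in saline whole kidneys, 15.56 ± 0.71 in 2 mg/kg tubules, 15.06 ± 0.44 in saline tubules, 14.11 ± 0.49 in 10 mg/kg tubules and 13.29 ± 0.25 in 10 mg/kg whole kidneys. Its first 3 groups overlapped, and the 10 mg/kg groups lay below them.

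Within each array, the mean share of probes dimmer than Slc4a4 was 97.1% in 10 mg/kg tubules and 99.0% in saline tubules, and 82.5% in 10 mg/kg whole kidneys and 77.8% in saline whole kidneys. For Slc9a3 the mean share was 78.1% in 10 mg/kg tubules and 95.3% in saline tubules. For Aqp1 it stayed above 94% in every group. Over the 9 tubule arrays, which share dose groups, the log2 signals of Slc4a4 and Slc9a3 correlated at 0.919. Those of Slc4a4 and Aqp1 correlated at 0.875 and those of Slc9a3 and Aqp1 at 0.777. Over all 15 arrays the values were, in the same order, 0.734, 0.336 and 0.694. After the group means were taken out of these 15 arrays, the values were 0.377, 0.569 and 0.336.

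Of 73 other symbols of bicarbonate, proton and water transport listed for the nephron, 7 had a named probe: the regulator Pdzk1, a scaffold of the brush border; the receptors Agtr1a and Pth1r; the mitochondrial carbonic anhydrase Car5b; Glud1, an enzyme of ammonia formation; and the channels Aqp7 and Aqp5. No subunit of the proton pump or of the sodium pump and no other exchanger of the list was named. In 10 mg/kg tubules 4 of the 7 fell against saline tubules and 0 rose. Pth1r, the receptor for parathyroid hormone, a hormone that lowers NHE3 activity, fell by 2.70 ± 0.37 (limma adjusted p = 0.000725). Agtr1a, a receptor for angiotensin II, which stimulates NHE3, fell by 2.41 ± 0.51 (limma adjusted p = 0.0121). Car5b fell by 2.06 ± 0.46 (limma adjusted p = 0.0170) and Pdzk1, which binds NHE3 among other apical carriers, fell by 1.72 ± 0.27 (limma adjusted p = 0.00172). The median of the 7 was -1.72, against 0.03 over all tested probes and -1.28 over the 401 named probes, of which 187 fell and 41 rose.

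The list too was named only through the table chosen by the authors, so its counts are no independent evidence of its direction. The calls of 2 of the 4 hung on single arrays: that of Car5b was lost without saline tubule replicate 1 (-1.71, limma adjusted p = 0.0770), and likewise without replicate 2 (-1.67, limma adjusted p = 0.0779) or 3 (-2.06, limma adjusted p = 0.0513) of 10 mg/kg tubules, and that of Agtr1a without saline tubule replicate 3 (limma adjusted p = 0.0508). At 2 mg/kg 0 of the 7 passed against saline. From 2 to 10 mg/kg the same 4 genes fell, with differences of -2.68 for Car5b, -2.54 for Agtr1a, -2.19 for Pth1r and -1.96 for Pdzk1 and limma adjusted p between 0.00065 and 0.00799. There 3.77% of all tested probes fell, as did 203 of the 401 probes with a symbol.

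In whole kidneys 5 of the 7 fell at 10 mg/kg against saline and 0 rose. Car5b fell by 3.54 ± 0.46. Aqp7, a channel for water and glycerol of the last proximal segment, stood at -2.27 ± 0.34 and Glud1 at -2.20 ± 0.36. Pth1r stood at -1.74 ± 0.37 and Pdzk1 at -1.26 ± 0.27, with limma adjusted p between 0.000749 and 0.0130 for the 5. Agtr1a stood at 0.26 ± 0.51 and Aqp5 at 1.31 ± 0.91. The median of the 7 was -1.74, against 0.02 over all tested probes and -1.24 over the named probes, of which 186 fell and 56 rose. With median centring Pdzk1 lost its call (-1.38, limma adjusted p = 0.154), and without scaling so did Pdzk1 (-1.49, limma adjusted p = 0.375), Pth1r (-1.98, limma adjusted p = 0.119) and Glud1 (-2.29, limma adjusted p = 0.0643). The 5 calls were kept without saline whole kidney replicate 3.

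The 2 named aquaporins beside Aqp1 were not alike. Aqp7 read 12.57, 11.44 and 12.46 in 10 mg/kg tubules, against 12.53, 12.80 and 12.12 in saline tubules, and the groups overlapped. In whole kidneys Aqp7 read 10.73, 10.52 and 10.23 at 10 mg/kg, against 12.67, 12.71 and 12.91 after saline, all treated arrays lying below all saline arrays as for Aqp1. Aqp5 spread over 3 units or more within both 10 mg/kg groups, between 7.15 and 10.27 in tubules and between 6.81 and 10.52 in whole kidneys, and passed in no comparison.

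Glud1, the glutamate dehydrogenase that releases ammonia, had the widest difference of the 7 between the sample types after 10 mg/kg. It read 13.74, 13.14 and 13.58 in 10 mg/kg tubules and 8.80, 9.90 and 9.55 in 10 mg/kg whole kidneys, a difference of 4.07 ± 0.36 with a limma adjusted p of 3.58e-05. Its tubule arrays lay more than 3 units above its whole kidney arrays. After saline the difference was 1.57 ± 0.36 (limma adjusted p = 0.0262), a call lost without any 1 of the 6 saline arrays (1.46 to 1.69, limma adjusted p between 0.0541 and 0.0947). The difference of its 10 mg/kg effects was 2.50 ± 0.51, with a limma adjusted p of 0.0969. Aqp7 also was higher in 10 mg/kg tubules than in 10 mg/kg whole kidneys, by 1.67 ± 0.34 (limma adjusted p = 0.00656), and no other gene of the 7 passed between the sample types. Agtr1a, at 1.75 between saline tubules and saline whole kidneys (limma adjusted p = 0.0830), passed at 2.01 where arrays were centred on their medians (limma adjusted p = 0.0475) and at 2.64 where no scaling was done (limma adjusted p = 0.0120).

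**Figure D4:**
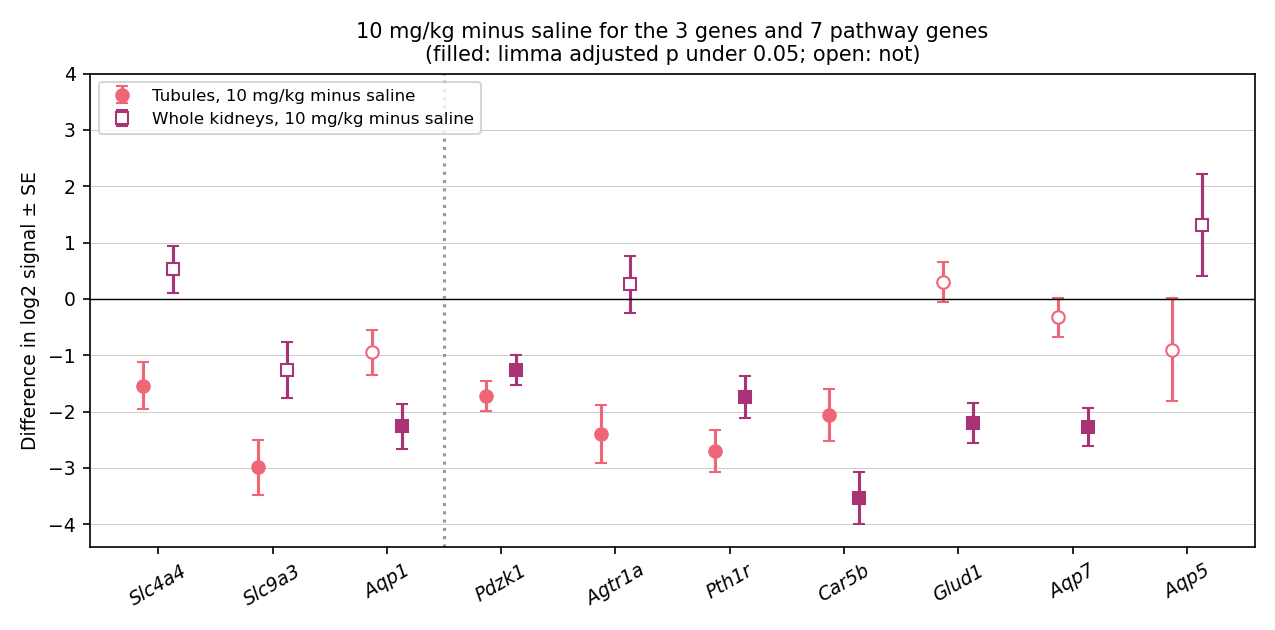
Difference in log2 signal ± SE (vertical axis) between 10 mg/kg and saline for the 3 genes and the 7 pathway genes with a named probe, in tubules (circles) and in whole kidneys (squares); filled symbols have a limma adjusted p below 0.05. Pdzk1, Pth1r and Car5b are filled in both kinds of sample, Slc4a4, Slc9a3 and Agtr1a in tubules, and Aqp1, Glud1 and Aqp7 in whole kidneys.

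The named genes whose signal followed each transporter most closely over the 15 arrays were taken from 395 candidates with all values. For Slc4a4 they were Slc7a7 (Pearson r 0.993), which encodes a basolateral carrier of cationic amino acids, the membrane skeleton gene Epb41l3 (0.980), the argininosuccinate lyase gene Asl (0.977), the sodium-glucose cotransporter gene Slc5a2 (0.970) and the cathepsin A gene Ctsa (0.970). Slc7a7 was higher in saline tubules than in saline whole kidneys, by 7.02, and stood at -2.27 in tubules and 0.42 in whole kidneys for 10 mg/kg minus saline. For Slc9a3 they were Acsm2 (0.945), an acyl-CoA synthetase gene, Slc37a4 (0.942), the glucose-6-phosphate translocator gene, the heme synthesis gene Alad (0.934), Acaa1a (0.928), a peroxisomal thiolase gene, and Zfand3 (0.922).

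For Aqp1 the closest were Btd (0.969), the biotinidase gene, Pyroxd2 (0.965), Abhd14b (0.958), Cyp4a8 (0.954), a fatty acid hydroxylase gene, and Galm (0.949), the galactose mutarotase gene. Btd stood at -2.16 in whole kidneys and -1.18 in tubules for 10 mg/kg minus saline, and at -0.42 between saline tubules and saline whole kidneys. Slc7a7 and Btd were picked by correlation over these same arrays, so that their group differences resemble those of Slc4a4 and Aqp1 follows from the choice. No gene was among the closest 5 of more than 1 transporter. These correlations describe group differences that the arrays share: after group means were taken out, they ran from 0.184 to 0.775 for Slc4a4, from 0.169 to 0.582 for Slc9a3 and from 0.690 to 0.842 for Aqp1.

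**Figure D5:**
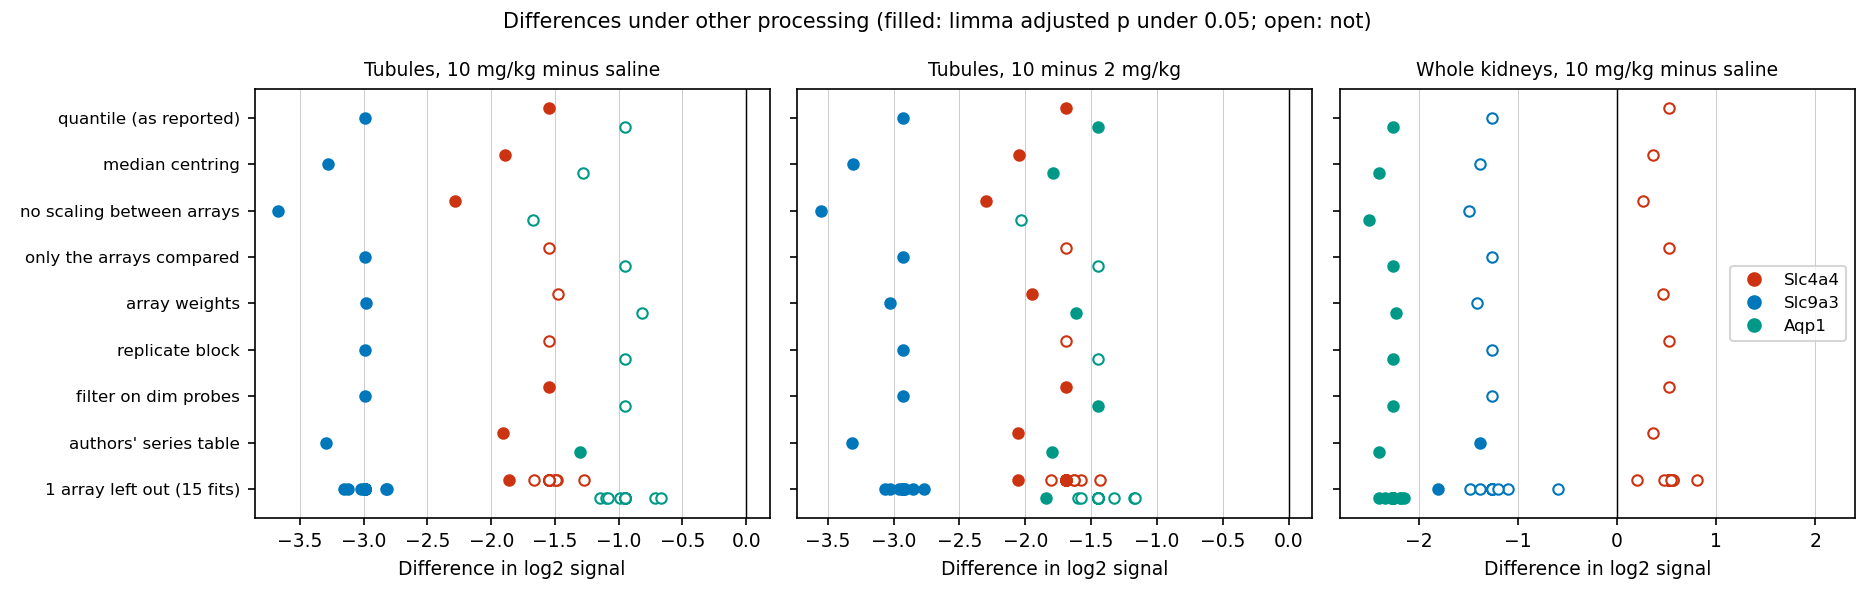
Difference in log2 signal (horizontal axis) of the 3 genes in 3 comparisons under each way of processing (rows, the lowest row holding 15 fits that each left out 1 array); filled points have a limma adjusted p below 0.05. Slc9a3 is filled in every row of both tubule panels and Aqp1 in every row of the whole kidney panel, while the points of Slc4a4 in tubules lie between -2.30 and -1.27 and change between filled and open.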

How the data were processed

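Total RNA was made into digoxigenin-labelled cRNA and hybridised to 1-colour Rat Genome Survey arrays of Applied Biosystems, per the labels' protocols. The deposited array files give 1 linear intensity per probe, per the file headers, with no background or detection column, so neither background correction nor a detection filter was applied. The labels and headers state neither scanner software nor scan dates, and no batch could be tested. The authors' deposited series table holds a ratio for 1219 probes, equal to the intensity divided by 1 constant per array (195 to 446, relative tolerance 1e-06). Its scale is thus known, its column medians lay between 2.58 and 9.46, and the rule for its probes is not given. Gene names exist for 401 of its probes (2 others have several symbols, and 26454 probes of the files have none), all matched to RefSeq by Entrez identifier.

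The log2 intensities of all 15 arrays were quantile normalized with limma 3.58.1 in R 4.3.3. Probes with at least 2 values per group were tested (26601, leaving out 256). Group means were fitted with lmFit and two-sided eBayes p-values of each contrast were adjusted by Benjamini-Hochberg over the 26601 probes, with a threshold of 0.05, on 10 residual and 3.92 prior degrees of freedom. Precision is set by the number of arrays. The fit was tested on simulated data. Named were the 3 members, the pathway genes with a named probe and, per member, the 5 genes of highest Pearson correlation. Members and lists were chosen with earlier results of these data known. Replicate numbers were not used to pair arrays in the main fit. Deviations of arrays of 1 number correlated at -0.144 to 0.133, and those of arrays of other numbers at -0.163 to 0.143. With 3 arrays per group these values cannot show whether arrays of 1 number share an animal or a day. The alternatives tried were median centring, no scaling, the compared arrays alone, array weights, a replicate block, leaving out the dimmest 25% of probes, the authors' table, and leaving out each array.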

Additional observations from a re-analysis of the deposited data

How the results depend on the processing

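Of 462 values of the 3 genes under other processing, 408 kept direction and side of the threshold, 40 lost a call, 5 gained one and 9 changed sign. Kept under all were the falls of Slc9a3 in tubules at 10 mg/kg against saline and 2 mg/kg, the fall of Aqp1 in whole kidneys, and the higher Slc4a4 in tubules after saline and after 10 mg/kg. With the replicate block the calls lost were Slc4a4 at -1.55 against saline (limma adjusted p = 0.0792) and -1.69 against 2 mg/kg (0.0505) and Aqp1 at -1.45 against 2 mg/kg (0.0716); the block changed no other call of the 3 genes. Other calls lost were Slc4a4 against saline with the compared arrays alone (-1.55) and array weights (-1.47), Slc4a4 against 2 mg/kg with the compared arrays alone (-1.69), and Aqp1 against 2 mg/kg without scaling (-2.04) and with the compared arrays alone (-1.45). In the authors' table, with 1219 probes tested, calls were gained by Aqp1 in tubules (-1.30, limma adjusted p = 0.0123), Slc9a3 in whole kidneys (-1.39, 0.00937) and the interactions of Slc4a4 (-2.27, 0.0194) and Slc9a3 (-1.91, 0.0403). Those probes were chosen by a rule not given, which may have used these samples, so the gained calls are no independent evidence. With median centring and 26601 probes tested, Aqp1 in tubules stood at -1.28 (limma adjusted p = 0.194). Signs changed for Slc9a3 at 2 mg/kg (0.027 with median centring, 0.045 with array weights, 0.020 in the authors' table) and Aqp1 between saline groups (0.59 without scaling). The cause of these changes was not tested.

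Leaving out 1 array gave these ranges for Slc4a4, Slc9a3 and Aqp1 in turn: -1.86 to -1.27, -3.15 to -2.82 and -1.14 to -0.67 in tubules at 10 mg/kg against saline; -0.17 to 0.51, -0.22 to 0.11 and 0.22 to 0.90 at 2 mg/kg; -2.06 to -1.43, -3.06 to -2.77 and -1.85 to -1.17 for 10 against 2 mg/kg; 0.20 to 0.81, -1.81 to -0.60 and -2.41 to -2.15 in whole kidneys. For tubules against whole kidneys they were 4.96 to 5.60, 2.02 to 2.40 and -0.73 to -0.30 after saline and 3.09 to 3.27, -0.15 to 1.06 and 0.66 to 1.10 after 10 mg/kg. For the interaction they were -2.39 to -1.75, -2.39 to -1.18 and 1.12 to 1.59.

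Probes past the threshold numbered 1553 (659 higher, 894 lower) in tubules at 10 mg/kg against saline, 0 at 2 mg/kg, 1711 (707, 1004) for 10 against 2 mg/kg, 1717 (779, 938) in whole kidneys, 954 (565, 389) and 2813 (1557, 1256) for tubules against whole kidneys after saline and after 10 mg/kg, and 10 for the interaction. With median centring they were 341 higher and 737 lower in tubules at 10 mg/kg against saline, then 352 and 973 for 10 against 2 mg/kg, 675 in whole kidneys, 558 and 239 after saline, 1550 (1071, 479) after 10 mg/kg and 2 for the interaction. In the order above and leaving out 2 mg/kg, the counts without scaling were 917 (129, 788), 1010 (142, 868), 356 (107, 249), 1245 higher and 70 lower after saline, 1248 (1061, 187) and 2. In that order the compared arrays alone gave 643, 1094, 519, 293, 977 and 0 for the interaction. Array weights gave 3085 for 10 against 2 mg/kg and 17 for the interaction, the block 0 and the filter on dim probes 29 for the interaction. In the order above the authors' table gave 967, 23 at 2 mg/kg, 956, 749, 406, 450 and 176. In the same order, leaving out 1 array gave 955 (saline tubule replicate 3) to 1630, 0 to 1, 927 (2 mg/kg replicate 1; 936 without replicate 2) to 1788, 1146 to 1764, 552 (saline tubule replicate 2; 563 without its replicate 3 or saline whole kidney replicate 3) to 1014, 1775 (10 mg/kg tubule replicate 1) to 3023 and 0 to 15. An alternative, the within-array ratios without saline whole kidney replicate 3, was chosen after seeing the data.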
